A study of Cerrena unicolor with 12 samples.

Results

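The genes described here are the carbon, pyruvate and glyoxylate metabolism genes of the white rot fungus *Cerrena unicolor* that lie outside the citrate cycle. They were taken by ID from the study's KEGG enrichment table, which lists genes that differed between cultivation day 6 (Cd-6) and cultivation day 10 (Cd-10) in glucose medium. The lists named carbon metabolism (29 genes), pyruvate metabolism (13 genes) and glyoxylate and dicarboxylate metabolism (10 genes) held 35 different genes, and removing the 9 genes of the citrate cycle list left 26 genes of the 11281 in the deposited table. They were therefore selected on the difference between the days in glucose, for which the study asked for a log2 fold change of 1 or more in size with P below 0.001, taken here as unadjusted because the study does not say. The study printed 18 of the 26 as higher at Cd-10 and 8 as higher at Cd-6.

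RNA was sequenced from wild-type hyphae of the single strain 87613, grown in shaken potato dextrose medium at 30°C and 200 rpm, with the sugar changed between treatments. There were 4 groups of 3 replicate cultures: fructose Cd-10, fructose Cd-6, glucose Cd-10 and glucose Cd-6, each culture giving 1 library. All groups share the strain, the basal medium and the incubation conditions, and no library came from a mutant. The hyphal label was not checked against marker genes, because the gene IDs below are paired with no products in the tables used here. In these bulk cultures, fewer cells of a kind and less RNA per cell cannot be told apart.

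Central carbon metabolism links sugar breakdown to the supply of energy and building blocks. Pyruvate, the end product of glycolysis, can enter the citrate cycle, be carboxylated to oxaloacetate or be reduced and decarboxylated to fermentation products. The glyoxylate bypass, known from fungi that grow on acetate, fatty acids or ethanol, skips the decarboxylating steps of the citrate cycle, so that carbon from acetyl-CoA can be kept for the synthesis of sugars. For the genes described below the list is the one functional statement available, and no enzyme is assigned to them.

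Levels are given as normalised read counts, that is, reads per gene rescaled to a common depth over the 12 libraries with no correction for gene length, so that they can be compared between libraries but not between genes. The libraries held 10279983 to 12126094 reads assigned to genes, and all 26 genes had reads in every library. Across genes, replicates of a group correlated with r of 0.952 to 0.987. On principal components, glucose Cd-6 replicate 2 lay apart from its group (62.6 on the second component, against 13.2 and 32.0), and so did fructose Cd-10 replicate 3 on the third (42.0, against 13.2 and 18.1). Log2 fold changes are Cd-10 over Cd-6 and fructose over glucose, whereas the study gives its day changes as Cd-6 over Cd-10.

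The fructose cultures shared no library with those that chose the genes, and they answer whether the same genes differed between the days on another sugar. Of the 26 genes, 24 changed between Cd-10 and Cd-6 in fructose at a Benjamini-Hochberg adjusted p below 0.05 in limma, against 29.8% of the 10060 genes tested. Those 24 comprised 17 genes that rose at Cd-10, all of them among the 18 printed as higher at Cd-10 in glucose, against 14.6% of all genes tested. The other 7 fell at Cd-10 and were among the 8 printed as higher at Cd-6, against 15.2% of all genes tested. The median log2 fold change was 2.62 over the 18 genes and -1.76 over the 8, beside 0.003 over all genes tested. The median absolute log2 fold change over the 26 was 2.16, beside 0.39 over all genes. Both days were separate, with no overlap of the 3 and 3 libraries, for 25 of the 26 genes, against 46.5% of all genes tested. Of these 25, 18 were higher at Cd-10 (23.8% of all genes) and 7 lower (22.8%). Under the study's own limits 20 of the 26 passed in fructose, against 10.9% of all genes, 14 of them higher (4.92%) and 6 lower (5.95%). Without fructose Cd-10 replicate 3, the library that lay apart on the third component, 23 genes were called, 16 higher and 7 lower. In the plot of fructose changes the genes are ordered from the largest rise to the largest fall.

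**Figure D1:**
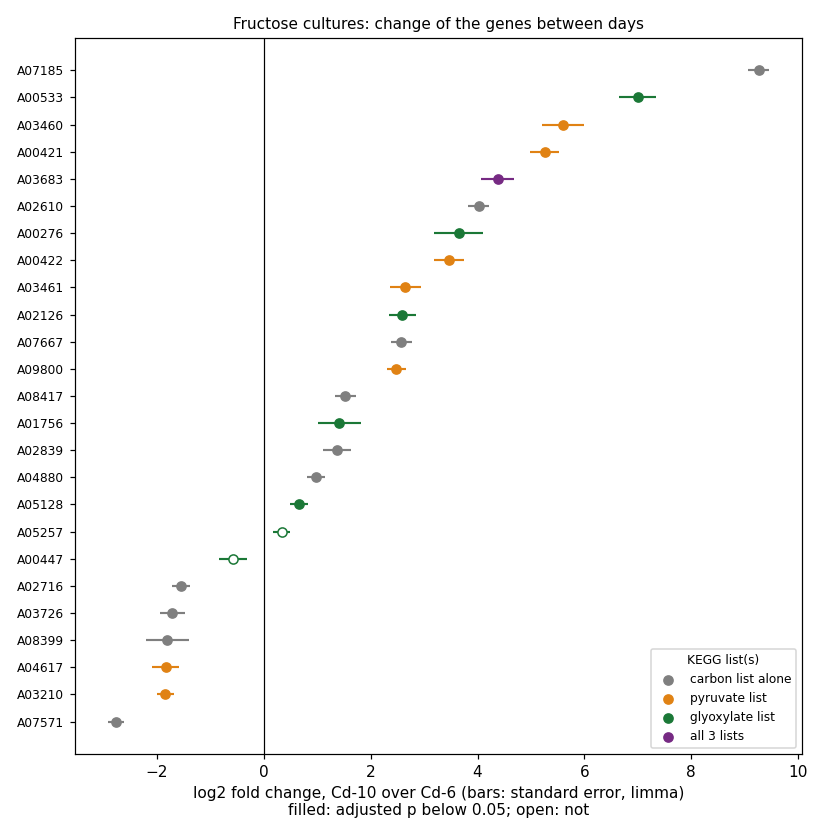
Log2 fold change of 25 of the 26 genes between fructose Cd-10 and fructose Cd-6 (x axis, log2 of normalised values plus 1), with standard errors from limma. The changes run from 9.26 for A07185 to -2.77 for A07571, and 23 of the 25 passed an adjusted p of 0.05.

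The reads that fell on the 26 genes together made up 3.16% ± 0.646 of all assigned reads in fructose Cd-10 cultures, against 1.67% ± 0.211 in fructose Cd-6 cultures (SD, n = 3 each). The 3 fructose Cd-10 libraries ranged from 2.46% to 3.74% and lay above the 3 fructose Cd-6 libraries at 1.52% to 1.91%. In glucose the share was 2.97% ± 0.184 at Cd-10, against 1.73% ± 0.439 at Cd-6 (SD, n = 3 each). At Cd-6 A08399, a gene that fell, took more reads than any other of the 26 genes. Its normalised read counts were 139903 to 192097 in fructose Cd-6 cultures, against 28540 to 72070 in fructose Cd-10 cultures. The pooled share therefore mixes this fall with the rise of other genes.

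A07185, listed under carbon metabolism alone, had normalised read counts of 22915, 24203 and 15508 in the fructose Cd-10 cultures, against 27.3, 35.6 and 34.4 in the fructose Cd-6 cultures. Every Cd-10 library was thus far above every Cd-6 library. The fitted log2 fold change was 9.26 ± 0.20 (SE), or 612-fold, with an adjusted p of 1.1e-08 in limma, and it ranked first by absolute change among the 10060 genes tested. In glucose the counts were 29235, 25768 and 36215 at Cd-10, against 141, 584 and 87.3 at Cd-6. The highest glucose Cd-6 value belonged to replicate 2, the library that lay apart on the second component, and the fructose fit did not use it. A07185 took 0.190% of all reads in fructose Cd-10 cultures, against 2.7e-04% in fructose Cd-6 cultures.

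**Figure D2:**
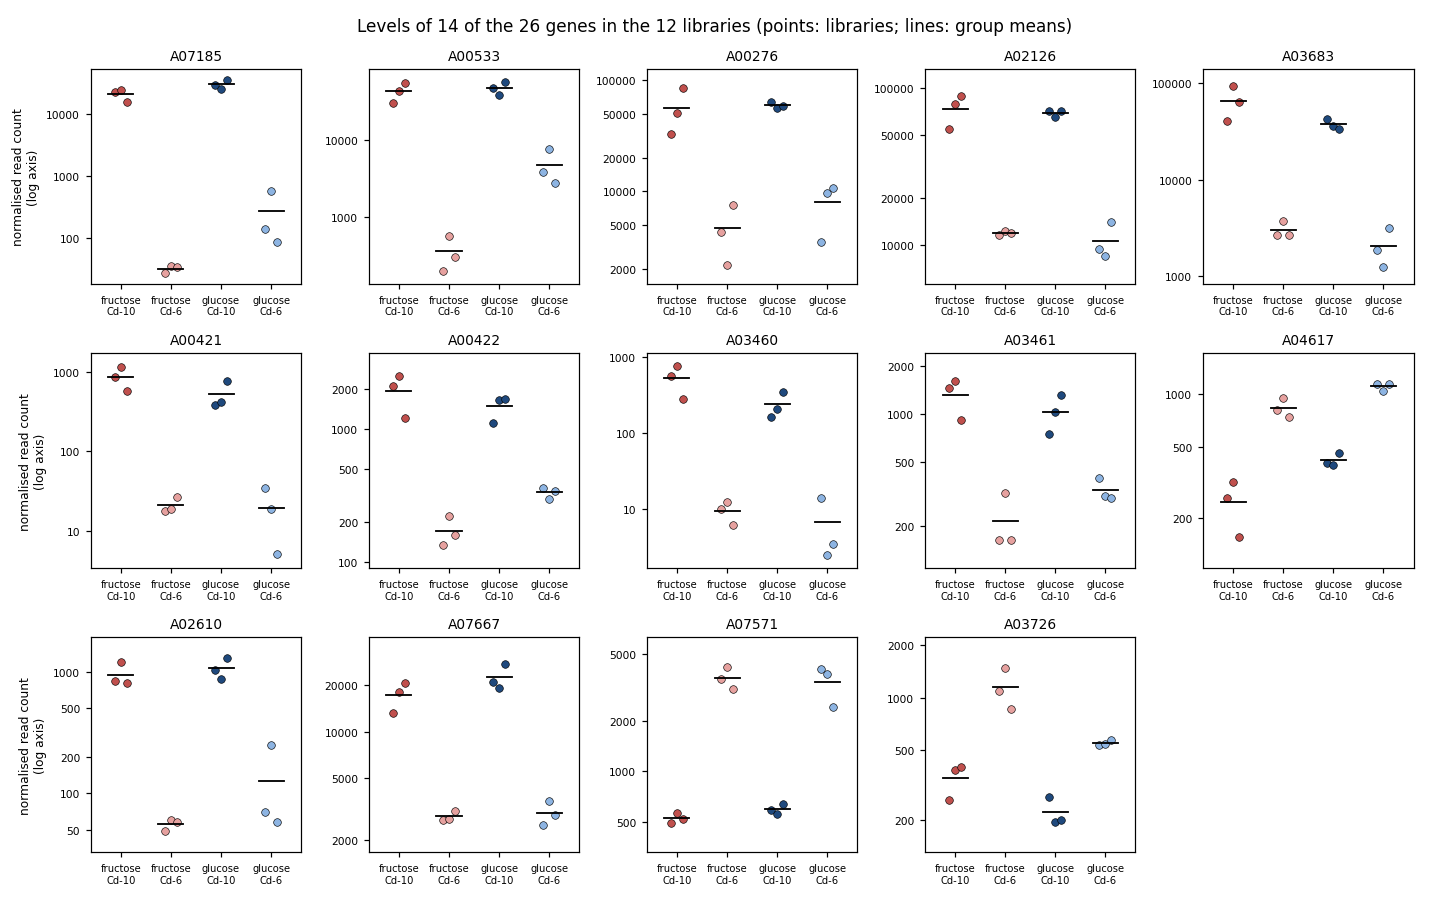
Normalised read counts (log axis, own range per panel) of 14 of the 26 genes in the 12 libraries, with points for libraries and lines for group means, fructose groups in red and glucose groups in blue. A07185 lies between 15508 and 24203 in fructose Cd-10 libraries and between 27.3 and 35.6 in fructose Cd-6 libraries.

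The glyoxylate and dicarboxylate list held 8 of the 26 genes. In fructose 6 of them rose at Cd-10, 0 fell and 2 did not pass the test, against 14.6% of all genes tested that rose and 15.2% that fell. Their median log2 fold change was 2.00, beside 0.003 over all genes tested. Like the other lists, this one holds only genes that differed between the days in glucose. At an unadjusted p below 0.05 the 2 genes did not pass either, since 24 of the 26 genes passed at that level too. No gene of the list was lost or gained in edgeR on the recovered reads.

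A00533, which is listed under carbon and glyoxylate metabolism, had normalised read counts of 29848, 42806 and 55791 in fructose Cd-10 cultures, against 199, 556 and 303 in fructose Cd-6 cultures. Its log2 fold change was 6.99 ± 0.35 (SE; adjusted p 2.5e-06 in limma), or 127.5-fold, and ranked second among all genes tested. In glucose the gene stood at 46964, 38713 and 56303 at Cd-10, against 3842, 7673 and 2769 at Cd-6. Its glucose Cd-6 libraries were all above its fructose Cd-6 libraries, so that the groups separated by sugar at Cd-6 while they overlapped at Cd-10.

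A00276, in the same pair of lists, had 32945, 50383 and 85104 in fructose Cd-10 cultures, against 4264, 2183 and 7582 in fructose Cd-6 cultures. The days did not overlap, though the values within a day differed severalfold at Cd-6, and the log2 fold change was 3.65 ± 0.45 (SE; adjusted p 3.6e-04 in limma). In glucose it had 64104, 56133 and 58773 at Cd-10, against 3502, 9658 and 10757 at Cd-6.

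A02126, also in both lists, had 54476, 78534 and 88236 in fructose Cd-10 cultures, against 11518, 12310 and 11861 in fructose Cd-6 cultures. All Cd-10 libraries lay well above the tight Cd-6 group, with a log2 fold change of 2.60 ± 0.25 (SE; adjusted p 7.7e-05 in limma). The glucose counts were 70689, 65400 and 71680 at Cd-10, against 9489, 8447 and 14015 at Cd-6. At each day the fructose and glucose libraries of A02126 overlapped.

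A03683 was the only one of the 26 genes held by all 3 lists. It had 40738, 94779 and 63870 in fructose Cd-10 cultures, against 2677, 3780 and 2676 in fructose Cd-6 cultures, with every Cd-10 library above every Cd-6 library. The log2 fold change was 4.38 ± 0.31 (SE; adjusted p 1.0e-05 in limma). In glucose it had 43264, 36505 and 33621 at Cd-10, against 1868, 1247 and 3149 at Cd-6.

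The remaining glyoxylate genes moved less. A01756 rose with a log2 fold change of 1.41 (adjusted p 0.0247 in limma), but its adjusted p passed 0.05, at 0.0522 to 0.07, when any of the 3 fructose Cd-10 replicates or fructose Cd-6 replicate 1 was left out. A05128 rose by 0.66 on the log2 scale (adjusted p 0.0156), and its adjusted p was 0.0541 to 0.075 without fructose Cd-10 replicate 1, fructose Cd-6 replicate 1 or fructose Cd-6 replicate 3. For A05257 the log2 fold change was 0.33 (adjusted p 0.126), although its days did not overlap. A00447, on the glyoxylate list alone, had -0.57 (adjusted p 0.126), and it was the single gene of the 26 whose fructose days overlapped.

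The pyruvate list held 8 of the 26 genes, and all of them changed in fructose, against 29.8% of all genes tested. At Cd-10 6 rose and 2 fell, against 14.6% and 15.2% of all genes, with a median log2 fold change of 3.05. The 5 genes on the pyruvate list alone include A00421 with A00422 and A03460 with A03461, which carry consecutive IDs. Whether consecutive IDs are neighbours in the genome, and whether these genes are similar enough in sequence to share reads, could not be checked, so that the split of reads within each pair is uncertain.

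A00421 had normalised read counts of 863, 1149 and 578 in fructose Cd-10 cultures, against 17.5, 18.9 and 26.3 in fructose Cd-6 cultures. The log2 fold change was 5.26 ± 0.27 (SE; adjusted p 2.6e-06 in limma), and the days were far apart. A00422 had 2134, 2512 and 1216 in fructose Cd-10 cultures, against 134, 221 and 159 in fructose Cd-6 cultures. Its log2 fold change was 3.46 ± 0.28 (SE; adjusted p 2.5e-05), again without overlap of the days.

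A03460 had 559, 761 and 278 in fructose Cd-10 cultures, against 9.83, 12.2 and 6.07 in fructose Cd-6 cultures. The log2 fold change was 5.60 ± 0.39 (SE; adjusted p 9.5e-06 in limma), on few reads at Cd-6. A03461 had 1452, 1618 and 913 in fructose Cd-10 cultures, against 162, 319 and 163 in fructose Cd-6 cultures. Its log2 fold change was 2.65 ± 0.30 (SE; adjusted p 1.9e-04), and no Cd-6 library reached the lowest Cd-10 library.

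In glucose the 4 genes lay on the same side. A00421 had 379, 409 and 769 at Cd-10, against 34.0, 18.7 and 5.04 at Cd-6. A00422 had 1110, 1674 and 1679 at Cd-10, against 362, 299 and 342 at Cd-6. In both genes every glucose Cd-10 library lay above every glucose Cd-6 library. A03460 had 162, 206 and 348 at Cd-10, against 14.0, 2.43 and 3.36 at Cd-6. A03461 had 751, 1028 and 1316 at Cd-10, against 397, 308 and 297 at Cd-6.

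The 4 genes also shared their highest and their lowest replicate culture at Cd-10. In fructose Cd-10, replicate 2 was the highest and replicate 3 the lowest for all 4 genes, an order that 11 of the 26 genes had. In glucose Cd-10, replicate 3 was the highest and replicate 1 the lowest for all 4, an order that 7 of the 26 had. For A00422 replicates 2 and 3 of glucose Cd-10 were almost equal, at 1674 and 1679. The share of all genes with either order was not counted. Within each pair, the gene with the lower ID number took a larger part at Cd-10. The ratio of A00421 to A00422 in recovered reads was 0.404 to 0.476 in fructose Cd-10 libraries, against 0.0854 to 0.166 in fructose Cd-6 libraries. The ratio of A03460 to A03461 was 0.305 to 0.471 in fructose Cd-10 libraries, against 0.0373 to 0.0608 in fructose Cd-6 libraries. Neither ratio overlapped between the days. The fructose Cd-6 ratios rest on few reads, at 16, 17 and 26 for A00421 and 9, 11 and 6 for A03460. Between the pairs, the ratio of A00422 to A03461 was 1.33 to 1.55 in fructose Cd-10 libraries, against 0.693 to 0.975 in fructose Cd-6 libraries. The ratio of A00421 to A03460 overlapped, at 1.51 to 2.08 in fructose Cd-10 libraries and 1.54 to 4.33 in fructose Cd-6 libraries. Ratios depend on gene length, which was not known, and serve only to compare libraries.

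**Figure D3:**
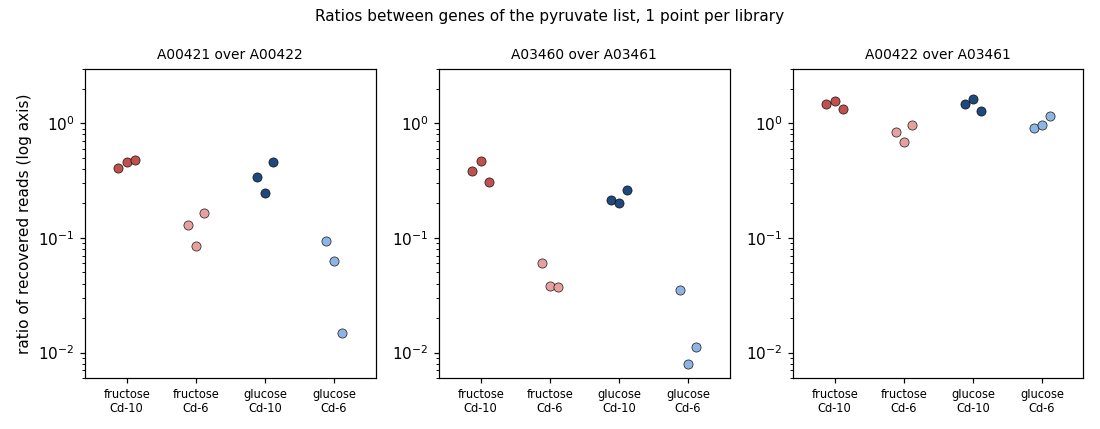
Ratio of reads between genes of the pyruvate list (log axis), for both pairs with consecutive IDs and between the pairs, in each library, by group. The fructose Cd-10 libraries, at 0.404 to 0.476 for A00421 over A00422, lie above the fructose Cd-6 libraries at 0.0854 to 0.166. The fructose Cd-6 libraries held only 16 to 26 reads of A00421.

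Of the other pyruvate genes, A04617 (carbon and pyruvate lists) had 260, 317 and 156 in fructose Cd-10 cultures, against 817, 953 and 744 in fructose Cd-6 cultures. All Cd-10 libraries were lower, and the gene fell with a log2 fold change of -1.84 ± 0.25 (SE; adjusted p 5.8e-04 in limma). In glucose it had 409, 396 and 462 at Cd-10, against 1137, 1045 and 1141 at Cd-6. A03210, on the pyruvate list alone, fell with a log2 fold change of -1.84 (adjusted p 2.9e-05), with 227 to 264 in fructose Cd-10 cultures and 798 to 981 in fructose Cd-6 cultures. A09800, on the carbon and pyruvate lists, rose with a log2 fold change of 2.48 (adjusted p 1.2e-05), with 2298 to 3365 in fructose Cd-10 cultures and at most 509 in fructose Cd-6 cultures.

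The carbon metabolism list held 20 of the 26 genes, of which 13 rose, 6 fell and 1 did not pass the test in fructose. The 11 genes on that list alone were split more evenly, with 6 that rose and 5 that fell. Of all genes tested, 14.6% rose and 15.2% fell. Besides A07185, A02610 had 829, 1194 and 808 in fructose Cd-10 cultures, against 49.2, 60.1 and 58.7 in fructose Cd-6 cultures. The days were far apart, with a log2 fold change of 4.02 ± 0.20 (SE; adjusted p 2.3e-06 in limma). In glucose A02610 had 1037, 874 and 1279 at Cd-10, against 69.9, 249 and 58.8 at Cd-6, and the highest Cd-6 value was again that of replicate 2.

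A07667 had 13134, 18084 and 20456 in fructose Cd-10 cultures, against 2709, 2715 and 3099 in fructose Cd-6 cultures. No library crossed over, and the log2 fold change was 2.57 ± 0.20 (SE; adjusted p 1.7e-05 in limma). In glucose it had 20932, 19090 and 27080 at Cd-10, against 2496, 3579 and 2902 at Cd-6. A08417, A02839 and A04880 rose less, with log2 fold changes of 1.53, 1.38 and 0.98 (adjusted p 3.7e-04, 0.0036 and 0.0021).

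All 5 genes of the carbon list alone that fell at Cd-10 had been printed as higher at Cd-6, and 4 of them, A07571, A02716, A03726 and A08399, are also on the list of amino acid biosynthesis. That list shares 5 genes with the 26, of which 4 fell and 1, A04880, rose in fructose, against 15.2% and 14.6% of all genes. A07571 had 496, 564 and 526 in fructose Cd-10 cultures, against 3526, 4183 and 3105 in fructose Cd-6 cultures. The Cd-10 libraries all lay far below the Cd-6 libraries, with a log2 fold change of -2.77 ± 0.15 (SE; adjusted p 2.6e-06 in limma). In glucose the gene had 589, 561 and 643 at Cd-10, against 4063, 3764 and 2408 at Cd-6.

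A03726 had 258, 387 and 402 in fructose Cd-10 cultures, against 1085, 1481 and 862 in fructose Cd-6 cultures. It fell without overlap of the days, with a log2 fold change of -1.71 ± 0.23 (SE; adjusted p 5.8e-04 in limma). In glucose it had 268, 195 and 200 at Cd-10, against 535, 545 and 574 at Cd-6. A02716 fell with a log2 fold change of -1.55 (adjusted p 1.4e-04), and A08399 fell with -1.80 (adjusted p 0.0082).

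Side by side, all 26 genes lay on the same side of 0 in fructose and in glucose. The glucose change chose the genes, so that its values are a description. The glucose days did not overlap in any of the 26 genes (18 higher and 8 lower at Cd-10), nor in 44.7% of all genes (22.2% higher and 22.5% lower), and nothing is read from that count. The absolute day change was larger in fructose for 16 genes and larger in glucose for 10, and the difference between the sugars was not tested. A00533 had a log2 fold change of 6.99 in fructose and 3.44 in glucose, and A07185 had 9.26 in fructose and 7.28 in glucose, whereas A05257 had 0.33 in fructose and 1.26 in glucose. The smallest absolute log2 fold change in glucose was that of A00447, at -1.06, just inside the limit of 1. Genes of these pathways just outside the limit were not analysed here, since the lists hold only genes within it.

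To find other genes of the same kind, the study's limits were applied to all genes in the glucose fit that gave the changes above. Within these limits were 23 of the 26 genes and 7.05% of all genes (4.25% higher and 2.79% lower at Cd-10). The choice of the 26 on the same libraries fixes that count, and nothing is read from it. In fructose those 23 genes all had the same sign and all were called. The 3 genes that the glucose fit left out include A00447 and A05257, the only 2 of the 26 not called in fructose. Of the other 692 genes past the same limits in glucose and tested in fructose, 636 (91.9%) had the same sign, 461 (66.6%) had the same sign and were called, and 6 were called in the opposite direction. The median absolute log2 fold change in glucose was larger for the 23 genes than for the others, at 2.13 and 1.56, so that the 2 sets are not matched in size of change.

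**Figure D4:**
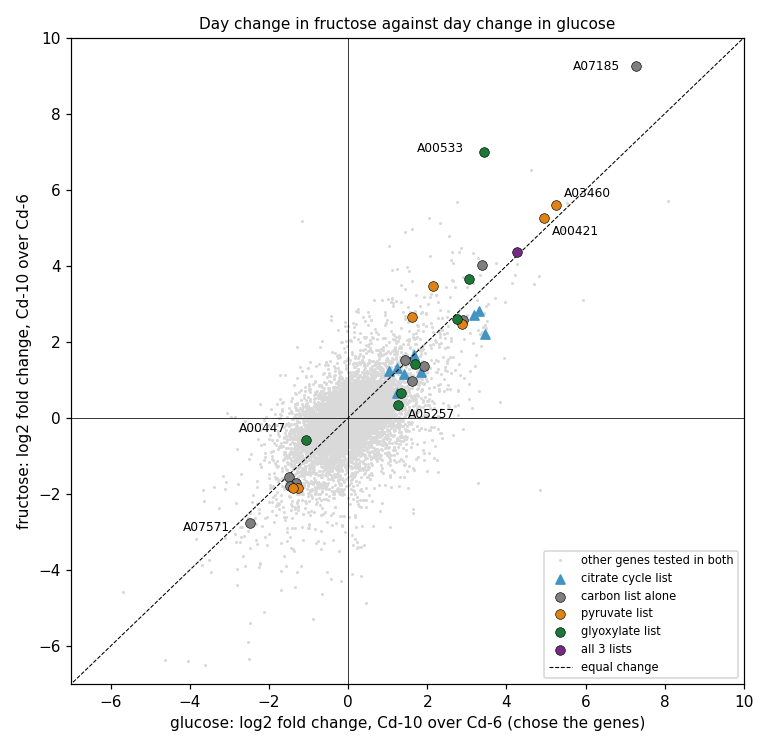
Log2 fold change Cd-10 over Cd-6 in fructose (y axis) and in glucose (x axis) for 25 of the 26 genes by list, with the citrate cycle genes as triangles, other genes in grey and a dashed line of equal change. All 25 have the same sign on both axes, and the glucose values chose the genes.

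Fructose was also compared with glucose over both days, using the mean of the 2 fructose groups against the mean of the 2 glucose groups in 1 fit of the 12 libraries. This average is uncorrelated with the glucose day difference that chose the genes only where groups have equal spread, which was not tested. In glucose the SD of log2 levels was 0.25 at Cd-10 and 1.42 at Cd-6 for A07185, 0.27 at Cd-10 and 0.75 at Cd-6 for A00533, and 0.26 at Cd-10 and 0.053 at Cd-6 for A03726 (n = 3 each). It was 0.029 at Cd-10 and 0.119 at Cd-6 for A02716, and 0.117 at Cd-10 and 0.071 at Cd-6 for A04617. The sugar test of these genes therefore cannot be taken as fully independent of the choice. Of the 26 genes, 5 differed between the sugars at an adjusted p below 0.05 in limma, against 8.82% of the 10396 genes tested. The 1 higher gene stands against 3.6% of all genes and the 4 lower genes against 5.22%. The count depended on single libraries and on weights: it was 2 (1 higher, 1 lower) without fructose Cd-6 replicate 1, 8 (3 higher, 5 lower) without glucose Cd-6 replicate 1 and 11 (5 higher, 6 lower) with array weights. Under the study's limits 2 of the 26 passed, A00533 and A07185, against 2.01% of all genes (0.76% higher and 1.25% lower). The median log2 fold change was -0.19 over the 26, beside 0.01 over all genes.

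A03726 was higher in fructose, with a log2 fold change of 0.83 ± 0.16 (SE; adjusted p 0.0078 in limma). Lower in fructose were A00533, at -1.96 ± 0.29 (adjusted p 0.0028), and A07185, at -1.55 ± 0.35 (adjusted p 0.0181). A04617, at -0.63 ± 0.15 (adjusted p 0.0258), and A02716, at -0.46 ± 0.10 (adjusted p 0.0192), were also lower. For A00533, the fructose mean over the glucose mean was 0.074 among Cd-6 libraries but 0.90 among Cd-10 libraries, which overlapped. The same ratio for A07185 was 0.12 (Cd-6) against 0.69 (Cd-10), with no overlap on either day. The averages of A00533 and A07185 thus rest more on Cd-6, though the sugars within a day were not tested. The calls of A00533 and A03726 held in every alternative fit, though A03726, with a change below 1, was outside the study's limits. Without glucose Cd-6 replicate 2, the library apart from its group, the log2 fold change of A07185 was -1.16 (adjusted p 0.0028 in limma). A07185 had an adjusted p of 0.0541 without fructose Cd-10 replicate 3 and without fructose Cd-6 replicate 1, and A02716 had 0.0576 without fructose Cd-6 replicate 1. A04617 had 0.0505 to 0.0686 without any of 5 libraries, namely fructose Cd-6 replicates 1 and 3, glucose Cd-10 replicates 1 and 3 and glucose Cd-6 replicate 3.

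By day, no gene had all its fructose Cd-10 libraries above all its glucose Cd-10 libraries, 6 had all below and 20 overlapped, whereas 28.8% of all genes did not overlap at Cd-10 (13.8% higher in fructose and 15.0% lower). At Cd-6, 3 genes lay above and 6 below without overlap and 17 overlapped, against 32.2% of all genes that did not overlap (16.4% higher and 15.8% lower). A07185, A02716 and A04617 lay below in fructose at both days. These separations at single days share the glucose libraries that chose the genes and were not tested.

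**Figure D5:**
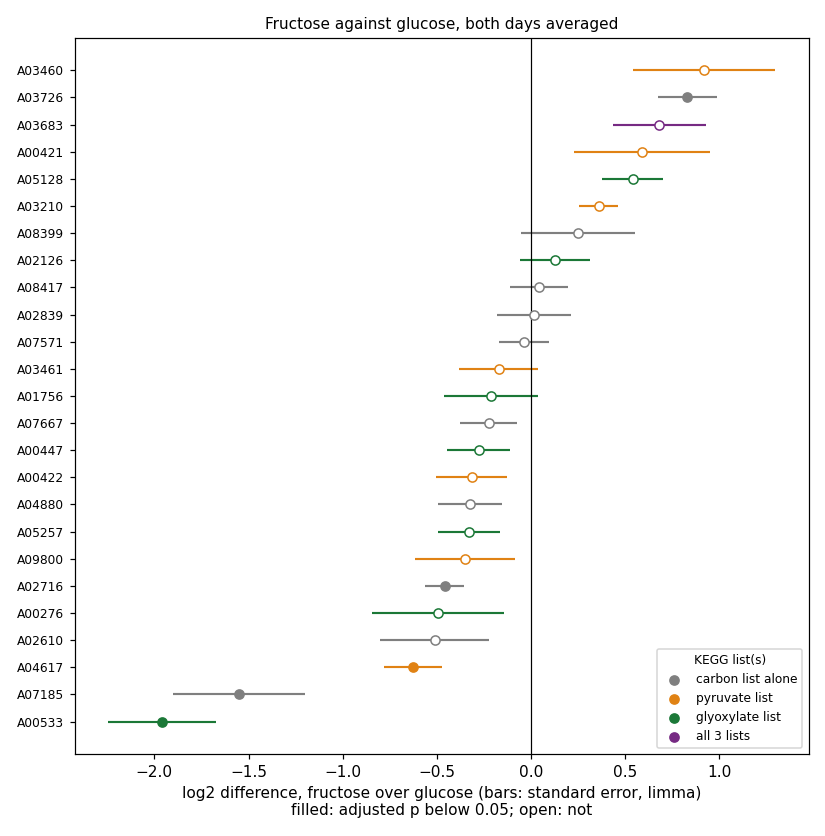
Log2 fold change of fructose over glucose, both days averaged, for 25 of the 26 genes (limma, 12 libraries, standard errors as bars), coloured by list with filled points for genes past an adjusted p of 0.05. A00533 at -1.96 and A07185 at -1.55 lie farthest below 0, and A03726 at 0.83 is the single gene called higher.

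The 9 citrate cycle genes that were removed from the lists give the other part of the same pathways. All 9 were called higher at Cd-10 in fructose, against 14.6% of all genes tested. Their median log2 fold change was 1.30, with a range of 0.65 to 2.80. The largest changes were those of A01247 at 2.80 and A00342 at 2.71. All 9 had been printed as higher at Cd-10 in glucose, as had the 18 of the 26 genes of which 17 rose in fructose. Between fructose and glucose 1 of the 9, A05242, was higher (log2 fold change 0.65, adjusted p 0.011 in limma) and 8 were not called. Of all genes tested, 8.82% were called between the sugars (3.6% of all genes higher in fructose and 5.22% of all genes lower).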

How the data were processed

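RNA was sequenced from 12 cultures, 3 in each of 4 groups. Reads were mapped with HISAT2 per the labels, which also name Cufflinks. As deposited, each gene's signal is its read count after the authors scaled every library by 1 median-ratio factor, separately within each sugar and without length correction. Within a tolerance of 0.01, 100% of the values in all 12 libraries were whole multiples of 1 read, and these reads were recovered.

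Members and lists were chosen with earlier results of these data known. Several KEGG identifiers in the study's table do not belong to the pathway name beside them, so lists were taken by name. None of the gene IDs was found in the reference gene table (0 matched), and no sequences are shown.

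For each comparison the libraries in it were brought to a common scale with median-ratio factors. Then log2(value + 1) was tested with limma 3.58.1 (R 4.3.3, eBayes with trend) for genes with at least 10 in at least 3 libraries. p-values were Benjamini-Hochberg adjusted over all genes tested, with calls below 0.05. Fold changes on this scale understate changes of low genes. The fructose day fit used 6 libraries and the sugar fit 12. The glucose day fit gave the glucose log2 fold changes as a description and served to find other genes within the study's limits. No p from it is given. The interaction of day with sugar and the sugars at 1 day were not tested for these genes. Values in every library were given for 4 genes named when the set was proposed (A07185, A00533, A00421, A03460), their neighbours by ID, the next 6 by fructose change and those with the largest called sugar difference, up to 4. Alternatives were other scalings, pseudocounts (0.5 and 5), filters (none and 50), array weights, a replicate block, leaving out each library, and count tests of the recovered reads with edgeR 4.0.16 or DESeq2 1.42.0. Counts and medians cover all 26 genes, of which 1 is not reported here by itself and is left out of the plots. The code was tested on simulated data. Figures were made with matplotlib 3.10.9 (Python 3.11.15).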

Additional observations from a re-analysis of the deposited data

How the results depend on the processing

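The fructose day result (24 genes, 17 higher and 7 lower) stayed within 1.5 times under every alternative run, including the study's limits, edgeR and DESeq2. With 1 library left out it ranged from 22 to 24 genes, with 15 to 17 higher and 7 lower. Of 468 values of single genes in the alternative fits, 460 kept direction and call, 7 lost the call (A01756 and A05128), 1 gained it (A00447, adjusted p 0.0427 with array weights in limma) and 0 reversed. Over all genes the count was 2999, against 1094 under the study's limits, 1790 without fructose Cd-6 replicate 1 and 2480 with the replicate block.

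The sugar result (5 genes, 1 higher and 4 lower) moved more. It was 2 (0 higher, 2 lower) under the study's limits in limma, 11 (5 higher) with array weights and 8 (4 higher) in DESeq2. With the call set at an unadjusted p below 0.05 alone, 5 were higher and 4 lower. With poscounts factors, and with the filter at 50, 2 were higher. With 1 library left out it ranged from 2 to 8 genes, with 1 to 3 higher and 1 to 5 lower, the lowest total without fructose Cd-6 replicate 1 and the highest without glucose Cd-6 replicate 1. The count over all genes was 917, against 209 under the study's limits, 2467 with array weights, 1543 in DESeq2 and 395 without fructose Cd-6 replicate 1. The cause was not tested.

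Library-size scaling moved the median of all genes by 0.11 (log2) for the fructose days, with 62.8% of calls higher against 49.1%, and by -0.12 for the sugars, with 21.9% against 40.8%. Counts over the 26 genes did not move. Whether replicate numbers pair the samples was not settled. Between the days, deviations of same-numbered fructose cultures correlated at 0.075, -0.076 and -0.076, and those of glucose cultures at 0.093, -0.085 and -0.0026. Between the sugars, same-numbered cultures correlated at -0.050, -0.085 and -0.205 at Cd-10 and at 0.107, 0.181 and 0.080 at Cd-6. Cultures with different numbers correlated at -0.124 to 0.034 between the sugars at Cd-6 and at -0.217 to 0.232 at Cd-10. Between the days, cultures with different numbers correlated at -0.048 to 0.1165 in fructose and at -0.114 to 0.109 in glucose. A replicate block left 24 genes (17 higher, 7 lower) for the days and 5 (1 higher, 4 lower) for the sugars. Genes with under 20 reads at Cd-6, such as A03460, are limited by depth.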
